A study of Mus musculus with 10 samples.

Results

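The 37 genes of the mouse mitochondrial genome were followed in livers of mice with and without forced expression of ASK1 in hepatocytes. They were taken from the deposited expression table as every gene whose name starts with mt-, 37 of 54532 genes, and comprise 13 protein-coding genes, 2 ribosomal RNA genes and 22 transfer RNA genes. ASK1 is a stress-activated kinase encoded by Map3k5. The control mice (ASK1f/f, n = 5) carried a murine ASK1 cDNA behind a loxP-flanked stop cassette in the ROSA26 locus, and ASK1+hep mice (n = 5) carried the same construct plus Cre recombinase under the albumin promoter, which removes the stop cassette in hepatocytes. Both groups were on a C57BL/6J background, received a high-fat diet (HFD) for 7 weeks starting at 6 weeks of age, and were fasted for 5 h before the liver was taken. The labels give each liver its own animal tag and do not state sex.

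Mitochondrial DNA is a small circle that is transcribed along nearly its whole length from both strands. The long precursors are cut at the tRNAs that punctuate them, which releases the ribosomal RNAs and the messenger RNAs. The 13 proteins are core subunits of complex I, complex III, complex IV and ATP synthase, and all other subunits, together with the polymerase, the nucleases and the translation factors, come from nuclear genes. Liver is rich in mitochondria, so these transcripts are abundant there. Libraries were made from RNA purified on poly-T beads. Mitochondrial messenger RNAs mostly carry a short poly(A) tail, whereas tRNAs and most rRNA molecules are poorly retained by such beads. The levels of the rRNA and tRNA genes are therefore levels in the purified fraction and not in total RNA.

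The values were FPKM, that is, fragments per kilobase of gene length scaled to a size set for each library. The underlying whole reads could be recovered from them. The size was 0.890 times the reads on genes in ASK1+hep replicate 3 and 0.967 to 1.06 times them in the other libraries. FPKM in that liver are therefore raised relative to its shares of reads. How the size was set is not given in the sources used here. Each library held between 13367742 and 16163378 reads on genes. All 6 hepatocyte markers examined, Alb and Ttr among them, were at 1 FPKM or more in every liver. Map3k5 had 4.71 to 19.8 FPKM in ASK1f/f livers (median 6.74) and 7.68 to 16.4 FPKM in ASK1+hep livers (median 12.4). The highest value belonged to the library labelled ASK1f/f replicate 5, which goes against its label. The other ASK1f/f livers reached at most 6.88 FPKM, below each ASK1+hep liver. ASK1+hep replicate 3 had the lowest Map3k5 of its group and also stood apart in the lengths of the genes that were high in it, as described with its mitochondrial reads. The counts that lead the genotype comparison are given without these libraries as well.

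The mitochondrially encoded genes took a larger share of the reads on average in ASK1+hep livers, and 1 liver carried most of that difference. The share of gene reads was 4.68, 5.02, 5.08, 5.05 and 4.19% in ASK1f/f replicates 1 to 5. It was 4.48, 6.74, 10.9, 4.30 and 5.76% in ASK1+hep replicates 1 to 5. The lowest share belonged to the library labelled ASK1f/f replicate 5 and the highest to ASK1+hep replicate 3, and the groups overlapped, since ASK1+hep replicates 1 and 4 lay below 4 of the 5 controls. The mean was 4.81% ± 0.379 (SD, n = 5) in ASK1f/f and 6.43% ± 2.68 (SD, n = 5) in ASK1+hep, a difference of 1.62 percentage points. Without ASK1+hep replicate 3 the difference was 0.512 points, and without both that liver and the library labelled ASK1f/f replicate 5 it was 0.359 points. No test was made on this sum over the genes. In bulk tissue, more mitochondrial RNA per cell and more cells rich in mitochondria cannot be told apart.

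**Figure D1:**
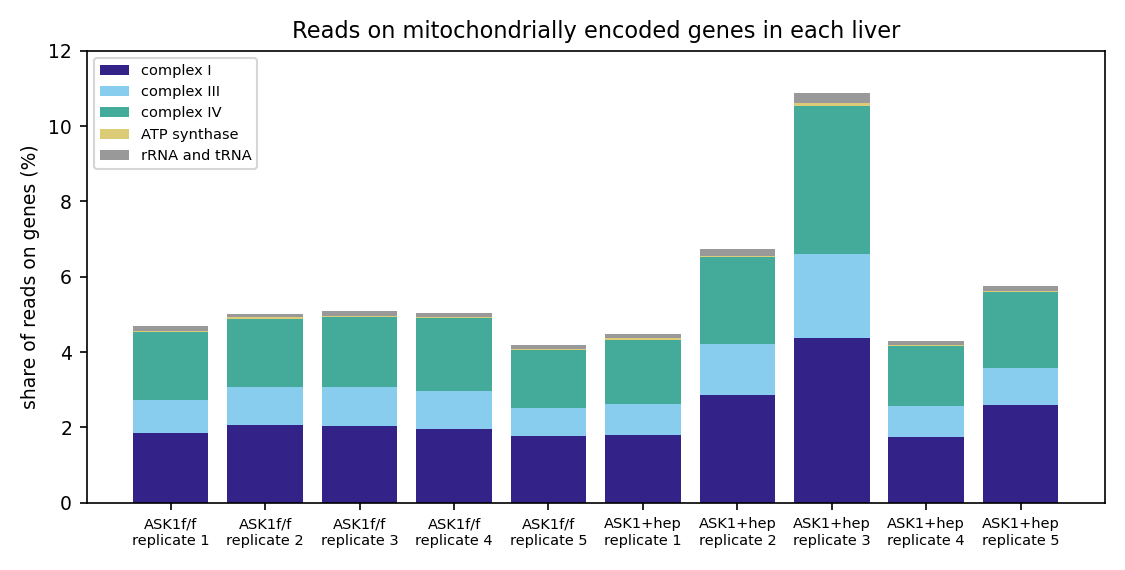
Share of all reads on genes (%, vertical axis) that fell on mitochondrially encoded genes in each of the 10 livers, stacked by the complex of the protein and with rRNA and tRNA genes together. The ASK1+hep replicate 3 bar reaches 10.9%, while the other bars lie between 4.19 and 6.74%.

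The make-up of these reads by the large classes varied less than their total. Protein-coding genes held 97.1 to 98.0% of the mitochondrial reads of a liver, rRNA genes 1.61 to 2.38% and tRNA genes 0.419 to 0.555%. By complex, complex I genes held 38.9 to 45.1% and complex IV genes 34.2 to 38.7%. Complex III, whose single mitochondrially encoded subunit is mt-Cytb, held 17.2 to 20.3%. ATP synthase genes held 0.274 to 0.879%, a wider relative range than that of the total. In ASK1+hep replicate 3 these shares were 40.3% for complex I, 36.2% for complex IV and 20.3% for complex III. Its complex I and complex IV shares lay within the range of the other 9 livers, and its complex III share was the highest, just above the 20.3% of ASK1f/f replicate 3. Its ATP synthase share was 0.652%, against a median of 0.441% over the 10 livers.

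Complex I receives electrons from NADH and has 7 mitochondrially encoded subunits. Among them mt-Nd2 (chromosome MT, 3914 to 4951, GRCm38) was the highest, with 5020 ± 280 FPKM in ASK1f/f livers and 7953 ± 3482 FPKM in ASK1+hep livers (SD, n = 5 each). Per liver, mt-Nd2 had 4812, 5481, 4804, 4926 and 5078 FPKM in ASK1f/f, against 4780.4, 9116, 13255, 4977 and 7636 FPKM in ASK1+hep. ASK1+hep replicates 2, 3 and 5 lay above every control, and replicates 1 and 4 lay among or below them. mt-Nd1 followed with 4352 ± 327 and 6764 ± 2959.7 FPKM, and showed the same 3 livers above every control. mt-Nd4 had 3310 ± 502 and 5034 ± 2915 FPKM, and mt-Nd5 had 1824 ± 210 and 2292 ± 975 FPKM. The only messenger RNA encoded on the other strand, mt-Nd6, had 2655 ± 720 FPKM in ASK1f/f livers and 3593 ± 1954 FPKM in ASK1+hep livers. The lowest complex I levels were those of mt-Nd4l, at 109 ± 65.9 and 226 ± 140 FPKM, and mt-Nd3, at 101 ± 12.9 and 144 ± 72.7 FPKM.

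Complex III passes electrons to cytochrome c, and complex IV passes them on to oxygen. The complex III subunit mt-Cytb had 7303, 9013, 8740, 8229 and 6124 FPKM in ASK1f/f, against 6851, 12284, 21741, 7338 and 8473 FPKM in ASK1+hep. Here ASK1+hep replicates 2 and 3 alone lay above every control. The catalytic complex IV subunit mt-Co1 was the highest of all 37 genes and ranked 5th in mean FPKM among all genes of the table. It had 10749, 11670, 11549, 11806 and 9439 FPKM in ASK1f/f, against 10302, 15115, 27849.7, 10321 and 12481 FPKM in ASK1+hep. Between 33.5 and 38.1% of a liver's mitochondrial reads came from mt-Co1 alone. The other complex IV subunits were far lower, with 211 ± 29.6 and 353 ± 253 FPKM for mt-Co2 and 193 ± 83.4 and 369 ± 291 FPKM for mt-Co3.

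**Figure D2:**
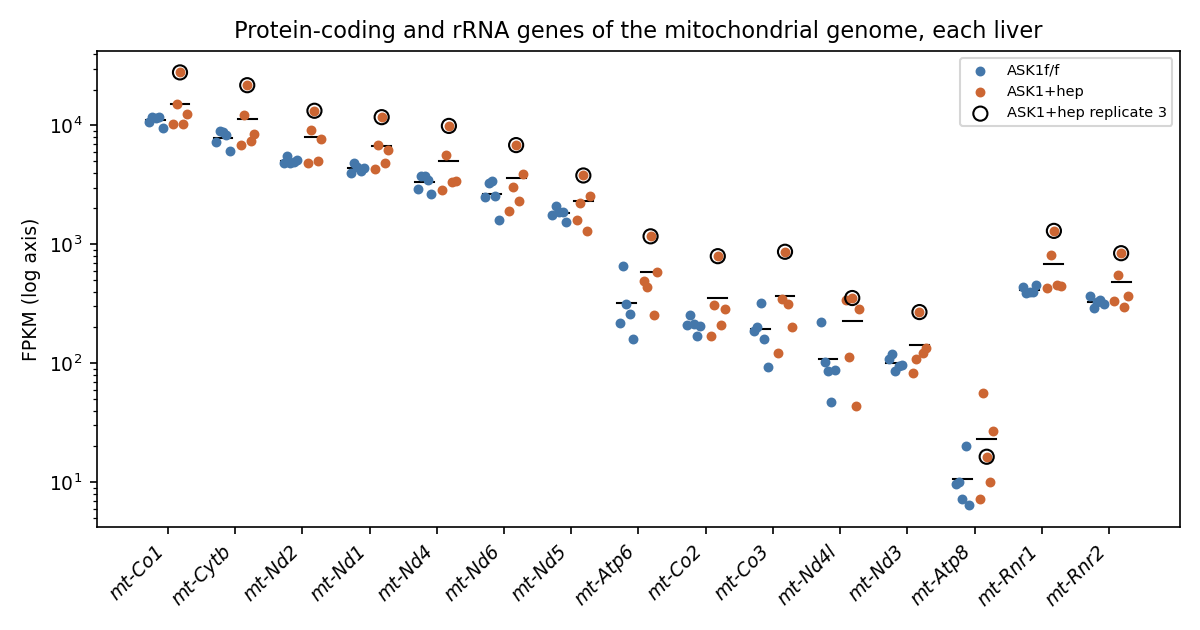
FPKM (log axis) of the 13 protein-coding genes and both rRNA genes in each liver, with ASK1f/f in blue, ASK1+hep in orange, a line at each group mean, and ASK1+hep replicate 3 circled. From mt-Co1 to mt-Nd5 the group means are 1824 FPKM or more, and from mt-Atp6 to mt-Atp8 they are 587 FPKM or less.

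The order of the abundant genes was stable across livers and that of the scarce ones was not. The mean level fell from mt-Co1 through mt-Cytb, mt-Nd2, mt-Nd1, mt-Nd4 and mt-Nd6 to mt-Nd5, and each neighbouring pair kept this order in all 10 livers, except mt-Nd4 and mt-Nd6, which kept it in 9. The step from mt-Nd5 down to mt-Atp6 was the widest in the upper part of the order, 3.20- to 9.61-fold within a liver. Below it, mt-Co2 exceeded mt-Co3 in 6 of 10 livers, mt-Co3 exceeded mt-Nd4l in 7, and mt-Nd4l exceeded mt-Nd3 in 6, so these neighbours did not differ beyond their spread. mt-Atp8 was below mt-Nd3 in all 10.

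Levels of genes cut from a common precursor can be compared within a liver by their ratio. Part of mt-Co1 and of mt-Nd4 also occurs in copies on chromosome 1, described further on, so ratios with them are less certain. The FPKM of mt-Co1 was 1.23 to 1.54 times that of mt-Cytb, and that of mt-Nd4 was 0.398 to 0.459 times that of mt-Cytb. The ratio of mt-Nd5 to mt-Nd4, which are neighbours separated by a few tRNAs, ranged more widely, from 0.383 to 0.746. It was 0.499 to 0.605 in the 5 ASK1f/f livers. In ASK1+hep replicates 1 to 5 it was 0.556, 0.394, 0.383, 0.386 and 0.746, so 3 ASK1+hep livers lay below every control and 1 above. The ratio of mt-Nd6 to mt-Nd5, transcribed from opposite strands, was 1.04 to 1.80, with the lowest value in the library labelled ASK1f/f replicate 5. The protocol text names strand-specific and unstranded kits without saying which one was used. Reads on mt-Nd6, those in the 14 bases it shares with mt-Nd5 among them, therefore cannot be assigned to a strand here. The mt-Nd6 level and its ratio to mt-Nd5 carry that limit.

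ATP synthase has 2 mitochondrially encoded subunits, both in its membrane part, and they lie on overlapping frames of 1 messenger RNA. mt-Atp6 had 217, 658, 318, 261 and 159 FPKM in ASK1f/f, against 493, 433, 1166, 255 and 590 FPKM in ASK1+hep. ASK1f/f replicate 2 was above every other liver but ASK1+hep replicate 3. mt-Atp8 was the lowest protein-coding gene, with 493 reads over the 10 livers. It had 9.69, 9.96, 7.21, 19.97 and 6.37 FPKM in ASK1f/f, against 7.19, 56.1, 16.4, 9.96 and 26.7 FPKM in ASK1+hep, and its highest value was in ASK1+hep replicate 2. The 2 genes share 43 bases (chromosome MT, 7927 to 7969), of the 204 bases of mt-Atp8, and reads there match both. The same holds for the 7 bases shared by mt-Nd4l and mt-Nd4 (10167 to 10173). How reads that touch 2 genes were counted is not given in the sources used here, so the level of mt-Atp8 is uncertain. Both junctions are shown on the plus strand of GRCm38, from the GENCODE transcripts, with the shared bases in capitals.
mt-Atp8 and mt-Atp6: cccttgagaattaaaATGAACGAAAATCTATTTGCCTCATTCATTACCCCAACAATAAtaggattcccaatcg
mt-Nd4l and mt-Nd4: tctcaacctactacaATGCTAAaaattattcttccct
In each the capitals open with the start codon of the second gene and close with the stop codon of the first.

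The low levels of mt-Co2, mt-Atp6, mt-Co3, mt-Nd3 and mt-Nd4l coincided with near-complete copies of these genes in the nuclear genome. Chromosome 1 holds a run of 7 annotated unprocessed pseudogenes on the minus strand, from 24611535 to 24616188, which matches positions 6390 to 11042 of the mitochondrial genome in the same order. Over its aligned length Gm28661 was identical to mt-Co2 (681 bases), Gm10925 to mt-Atp6 (678 bases), Gm28437 to mt-Co3 (783 bases) and Gm10222 to mt-Nd4l (294 bases). Gm28439 was identical to the first 876 bases of mt-Nd4, 63.6% of that gene. Gm28438 differed from mt-Nd3 at 1 of 345 bases (T3C, mitochondrial base first, counted from the 5′ end of the gene). Gm29216 differed from the last 483 bases of mt-Co1 at 1 base (A1066T). The spacing was nearly kept too, with gaps of 140, 233, 2 and 69 bases between the first 5 segments on both chromosomes. The next gap, between the mt-Nd3 and mt-Nd4l segments, was 73 bases in the mitochondrial genome and 74 on chromosome 1.

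Pairs of 60-base windows show how little there is to separate reads of a gene from reads of its copy. Each is written 5′ to 3′ along the gene, with a base that differs between the pair in capitals. The mt-Co2 window is at chrMT:7013-7072 and that of Gm28661 at chr1:24615506-24615565, and the mt-Atp6 window is at chrMT:7927-7986 and that of Gm10925 at chr1:24614592-24614651.
mt-Co2: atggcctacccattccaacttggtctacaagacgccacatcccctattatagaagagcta
Gm28661: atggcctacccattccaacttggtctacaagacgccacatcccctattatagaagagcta
mt-Atp6: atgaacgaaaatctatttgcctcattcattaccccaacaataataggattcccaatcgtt
Gm10925: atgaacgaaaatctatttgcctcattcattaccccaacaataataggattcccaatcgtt
The other pairs hold the single differences, at chrMT:9459-9518 and chr1:24613060-24613119 for mt-Nd3 and Gm28438, and at chrMT:6390-6449 and chr1:24616129-24616188 for mt-Co1 and Gm29216.
mt-Nd3: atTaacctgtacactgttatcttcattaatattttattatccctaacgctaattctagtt
Gm28438: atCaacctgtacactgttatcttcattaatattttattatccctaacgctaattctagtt
mt-Co1: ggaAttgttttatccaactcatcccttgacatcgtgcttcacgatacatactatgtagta
Gm29216: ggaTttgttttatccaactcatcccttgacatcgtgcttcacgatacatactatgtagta
Of all 100-base windows of each gene, 99.5% of those in mt-Co2, 99.5% in mt-Atp6, 99.9% in mt-Co3, 98.5% in mt-Nd4l and 97.6% in mt-Nd3 also occurred in these copies. The share was 60.8% for mt-Nd4, 26.3% for mt-Co1 and 0 for mt-Cytb, mt-Nd1, mt-Nd2, mt-Nd5 and mt-Nd6. Further annotated copies elsewhere, Gm13339, Gm13340 and Gm13341, held 100-base windows of mt-Nd2, mt-Co1 and mt-Co2 respectively.

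**Figure D3:**
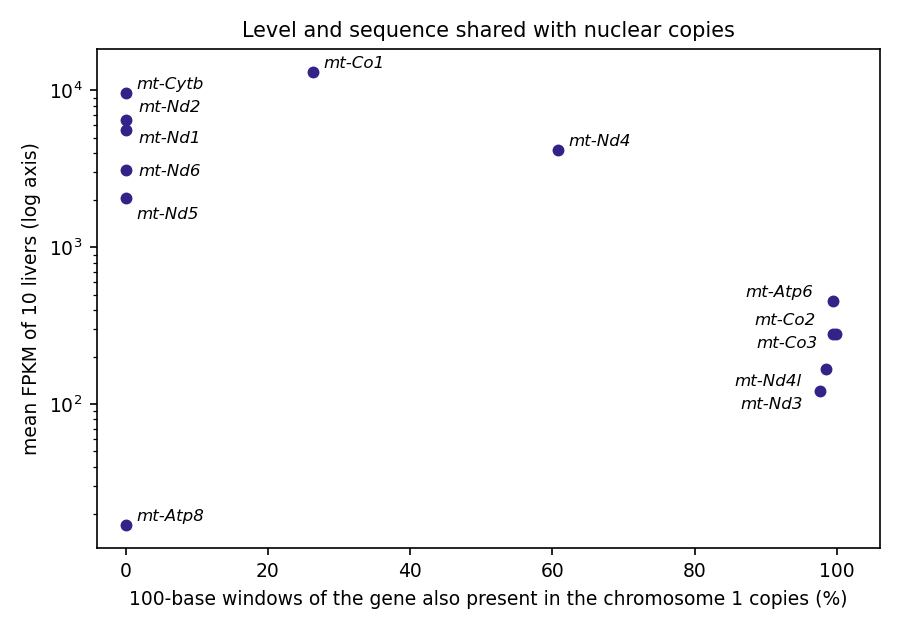
Mean FPKM over the 10 livers (log axis) of each protein-coding gene against the percentage of its 100-base windows that also occur in the chromosome 1 copies. The 5 genes near 100% lie at 455 FPKM or less, and the other genes lie at 2058 FPKM or more except mt-Atp8, which is inside the copied stretch but has no annotated copy.

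Every one of the 5 genes with a near-complete copy had a lower mean FPKM than every protein-coding gene without one, apart from mt-Atp8. The copies themselves carried reads. Of the reads on mt-Co2 and Gm28661 together, 40.3 to 48.8% were assigned to the copy, depending on the liver. For Gm10925 the figure was 16.2 to 40.0%, for Gm28437 14.4 to 34.2%, for Gm28438 8.44 to 15.4% and for Gm10222 7.29 to 50.1%. For the copies that cover only part of their gene it was 0.410 to 0.964% (Gm28439) and 0.195 to 0.333% (Gm29216). How reads that match both places were counted is not given in the sources used here. The levels of these 5 genes and of the 7 copies are therefore uncertain. So, in part, are those of mt-Nd4 and mt-Co1, with 60.8% and 26.3% of their 100-base windows in the copies. The part of multiple matching in the low values of the 5 genes was not tested. The annotated stretch also spans mt-Atp8, mt-Tg, mt-Tr, mt-Ts1, mt-Tk and mt-Td, which have no annotated copy.

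The ribosomal RNAs of the mitochondrial ribosome were at the level of the scarcer messenger RNAs in these poly-T libraries. mt-Rnr1, the small-subunit rRNA (70 to 1024), had 433, 387, 394, 397 and 454 FPKM in ASK1f/f, against 433, 814, 1296, 454 and 443 FPKM in ASK1+hep. ASK1+hep replicates 2 and 3 were well above all controls, while the remaining 3 were within or at the edge of the control range. The large-subunit rRNA, mt-Rnr2 (1094 to 2675), had 329 ± 29.8 FPKM in ASK1f/f livers and 478 ± 227 FPKM in ASK1+hep livers. The ratio of mt-Rnr2 to mt-Rnr1 was 0.649 to 0.855, with its lowest values in ASK1+hep replicates 3 and 4.

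Transfer RNAs carry amino acids to the mitochondrial ribosome, and at 59 to 75 bases they are short relative to a sequencing fragment. Of the 22 tRNA genes 15 had enough reads to be tested. The other 7, mt-Ta, mt-Tt, mt-Tv, mt-Ts1, mt-Tk, mt-Tf and mt-Td, had 24, 14, 11, 4, 2, 0 and 0 reads over all livers. A count of 0 in a library allows up to 3 reads. The 8 tRNA genes on the minus strand held 80.6% of all tRNA reads (30604 reads), and the 14 on the plus strand held 19.4% (7389 reads). Nearly all protein-coding genes lie on the plus strand, so most tRNA reads fell on genes annotated on the strand with the fewest messenger RNA genes. Whether the libraries were strand-specific is not known, so these reads cannot be assigned to the strand they came from. On the plus strand mt-Tg, mt-Tr, mt-Tk and mt-Td, and on the minus strand mt-Ts1, also lie in the stretch copied on chromosome 1.

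The 4 most abundant tRNAs and both without a read are printed to show the range. They are written 5′ to 3′ from the GENCODE transcripts of GRCm38, with the anticodon in capitals.
mt-Tp: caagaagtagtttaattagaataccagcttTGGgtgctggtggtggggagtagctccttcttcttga
mt-Tc: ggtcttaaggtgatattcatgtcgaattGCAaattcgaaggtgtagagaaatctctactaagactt
mt-Te: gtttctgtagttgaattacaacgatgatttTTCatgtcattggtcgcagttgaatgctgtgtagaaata
mt-Tl2: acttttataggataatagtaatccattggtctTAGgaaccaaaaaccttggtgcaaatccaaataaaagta
mt-Tf: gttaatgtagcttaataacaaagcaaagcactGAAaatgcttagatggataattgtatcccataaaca
mt-Td: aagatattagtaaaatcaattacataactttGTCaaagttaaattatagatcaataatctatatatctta
The proline tRNA mt-Tp (minus strand, 15356 to 15422) held 40.6% of the tRNA reads, the cysteine tRNA mt-Tc (minus strand, 5192 to 5257) 15.4%, the glutamate tRNA mt-Te (minus strand, 14071 to 14139) 12.6% and the leucine tRNA mt-Tl2 (plus strand, 11671 to 11741) 11.9%. The phenylalanine tRNA mt-Tf (1 to 68) and the aspartate tRNA mt-Td (6942 to 7011) lie on the plus strand.

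mt-Tp had 1181, 1437, 1361, 1468 and 1331 FPKM in ASK1f/f, against 964, 2159.9, 2912, 1232 and 1579.8 FPKM in ASK1+hep. Its ASK1+hep values spanned both sides of the controls. mt-Tc had 625, 269, 564, 433 and 455 FPKM in ASK1f/f, against 394, 558, 1939, 428 and 350 FPKM in ASK1+hep, so that only ASK1+hep replicate 3 lay above the controls. The asparagine tRNA mt-Tn showed the same single high liver, at 893 FPKM against 190 to 390 FPKM in the other 9. mt-Te differed from both in having its highest value, 625 FPKM, in ASK1+hep replicate 2 and 600 FPKM in replicate 3.

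The comparison of genotypes asked whether these genes differed between ASK1+hep and ASK1f/f livers on HFD. In limma on log2(FPKM + 1), fitted to all 13306 genes that passed a filter on low values, no gene passed an adjusted p of 0.05 (Benjamini-Hochberg), and 768 genes (5.77%) had an unadjusted p under 0.05. Of the 37 mitochondrially encoded genes 30 entered this fit, 0 passed the adjusted threshold against 0% of all genes tested, and 1 had an unadjusted p under 0.05. Their lowest adjusted p in limma was 0.812. The groups overlapped for all 30, while they did not overlap for 115 (0.864%) of all genes tested. Map3k5, the gene forced on in ASK1+hep, did not pass either, at 0.60 ± 0.32 (log2 fold change, SE, limma adjusted p = 0.812). The paper, which used DESeq2, reported Fgf21 as highly upregulated in ASK1+hep livers after 7 weeks of HFD. The absence of calls in this fit therefore does not show that a gene was unchanged.

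Direction was more uniform than size. A log2 fold change above 0, higher in ASK1+hep, was found for 26 of the 30 genes and for 48% of all genes tested. All 13 protein-coding genes, both rRNA genes and 11 of 15 tRNA genes had it. The median log2 fold change was 0.52 for protein-coding genes, 0.51 for rRNA genes and 0.17 for tRNA genes, against -0.0065 for all genes tested. With values scaled to reads on all genes instead, it was 0.44 for protein-coding genes and -0.052 for all genes tested. Genes on the same strand share a precursor, and all come from the same 10 livers, so their common sign is not 30 separate observations. Without ASK1+hep replicate 3, 22 of the 30 genes and all 13 protein-coding genes remained above 0, with a protein-coding median of 0.17. When the library labelled ASK1f/f replicate 5 was left out as well, 21 of 30 and 11 of 13 remained, with a median of 0.12, and mt-Nd5 and mt-Nd6 lay below 0.

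By complex, the median log2 fold change was 0.46 over the 7 complex I genes, 0.39 for mt-Cytb, 0.52 over the 3 complex IV genes and 0.84 over both ATP synthase genes. mt-Nd4l had the highest value of the protein-coding genes, 0.87 ± 0.57 (SE), followed by mt-Atp6 with 0.86 ± 0.42 and mt-Atp8 with 0.81 ± 0.47. In limma the adjusted p was 0.812 for each of these 3. All of them belong to the scarce genes with a shared or overlapping sequence, and the median over the 5 genes with a near-complete chromosome 1 copy was 0.73. Among the abundant genes without such a copy, mt-Nd2 was at 0.56 ± 0.29, mt-Nd1 at 0.54 ± 0.28, mt-Cytb at 0.39 ± 0.33, mt-Nd6 at 0.34 ± 0.35 and mt-Nd5 at 0.23 ± 0.27. mt-Co1, the most abundant, was at 0.36 ± 0.31. Of the 7 chromosome 1 copies, 6 had a value above 0 and their median was 0.41, while Gm10222, the copy of mt-Nd4l, was at -0.20 ± 0.43.

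Among rRNA and tRNA genes, mt-Rnr1 was at 0.59 ± 0.28 and mt-Rnr2 at 0.43 ± 0.26. The isoleucine tRNA mt-Ti was the gene with an unadjusted p under 0.05 in limma, at 0.62 ± 0.21 (SE, adjusted p = 0.812). It rested on 113 reads over the 10 livers, with 6.44 to 9.69 FPKM in controls and 7.65 to 20.2 FPKM in ASK1+hep, and only ASK1+hep replicate 1 lay within the control range. The histidine tRNA mt-Th had the highest tRNA value, 0.67 ± 0.32, and the tyrosine tRNA mt-Ty the lowest, -0.17 ± 0.20. mt-Tn, mt-Tw and mt-Tm were also below 0, at -0.053, -0.058 and -0.17, and the signs of these 3 reversed when single livers were left out.

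**Figure D4:**
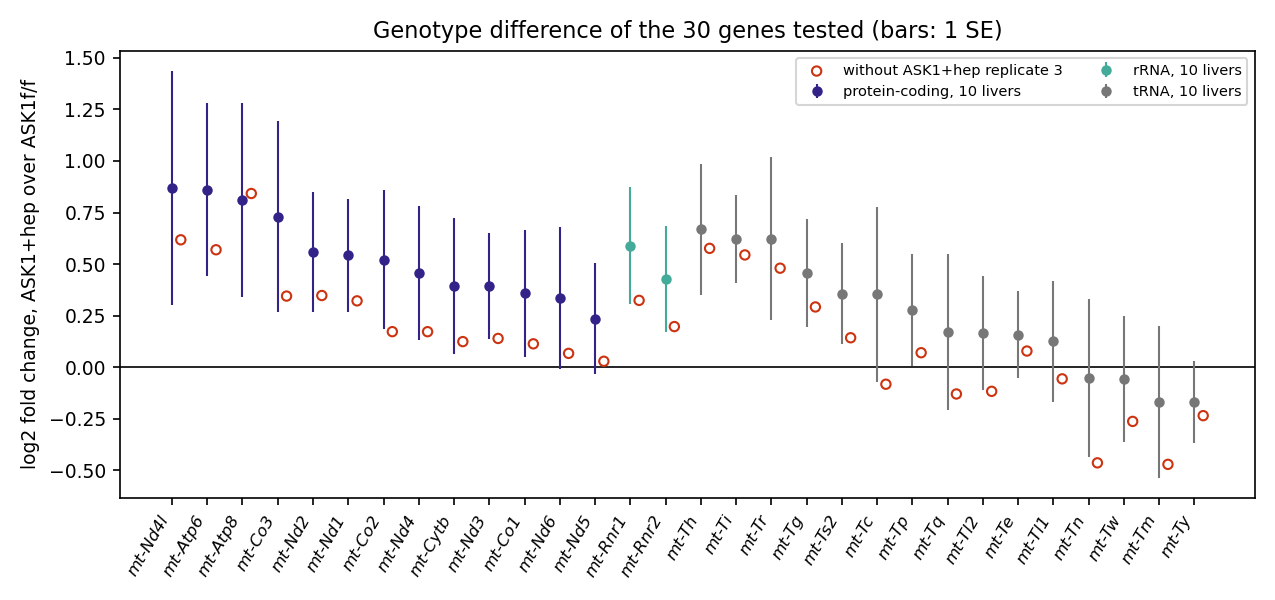
Log2 fold change of ASK1+hep over ASK1f/f (limma on log2(FPKM + 1), vertical axis, bars 1 SE) for the 30 genes tested, ordered within protein-coding, rRNA and tRNA genes, with open circles for the fit without ASK1+hep replicate 3. Filled points are above 0 for 26 genes, and the open circle lies below the filled point for each gene except mt-Atp8.

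The liver with the highest mitochondrial share, ASK1+hep replicate 3, had 1684487 reads on these genes, and its share was 2.17 times the median of the other 9 livers. It was picked for this share, so high values of these genes in it follow from the choice. The counts below describe how the rise was spread over the genes and are not a test. FPKM there was at least 1.5 times the median of the other livers for 28 of the 30 genes, against 19.2% of all genes tested. It was above each of the other livers for 23 of the 30, against 26.3% of all genes. The median ratio was 2.66 for protein-coding genes, 2.76 for rRNA genes and 2.02 for tRNA genes, against 0.992 for all genes. Ratios were highest for mt-Tc (4.48), mt-Co3 (4.30), mt-Co2 (3.81) and mt-Tn (3.76), and among the abundant messenger RNAs they ran from 2.05 for mt-Nd5 to 2.88 for mt-Nd4. The copies moved with the genes, with a median ratio of 3.02. mt-Ty (1.08) and mt-Te (1.44) were the genes under 1.5. Of the protein-coding genes mt-Atp8 alone was not highest in this liver.

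This library also differed from the others by gene length. When the genes tested were split into quintiles by length, its median ratio to the other livers was 1.36 in the shortest quintile (57 to 2099 bases), 1.12 in the next, then 0.982 and 0.912, and 0.813 in the longest (7230 bases or more). The shortest quintile over the longest was 1.67 in this library and ran from 0.766 (ASK1+hep replicate 5) to 1.29 (ASK1+hep replicate 4) in the others. All 30 mitochondrially encoded genes tested were in the shortest quintile. Of the 2632 other genes in that quintile, 41.7% were at least 1.5 times the other livers in ASK1+hep replicate 3, 46.2% were highest there and their median ratio was 1.35. The same 2632 genes had a median log2 fold change between genotypes of 0.092, with 64.2% above 0, and without that library 0.031 and 57%. Malat1, a long noncoding RNA of the nucleus, had 20.02 FPKM in this library, the lowest of the 10 livers, against 38.9 to 77.3 FPKM in the others. The part of the length pattern and of the low Malat1 in the mitochondrial values was not tested.

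**Figure D5:**
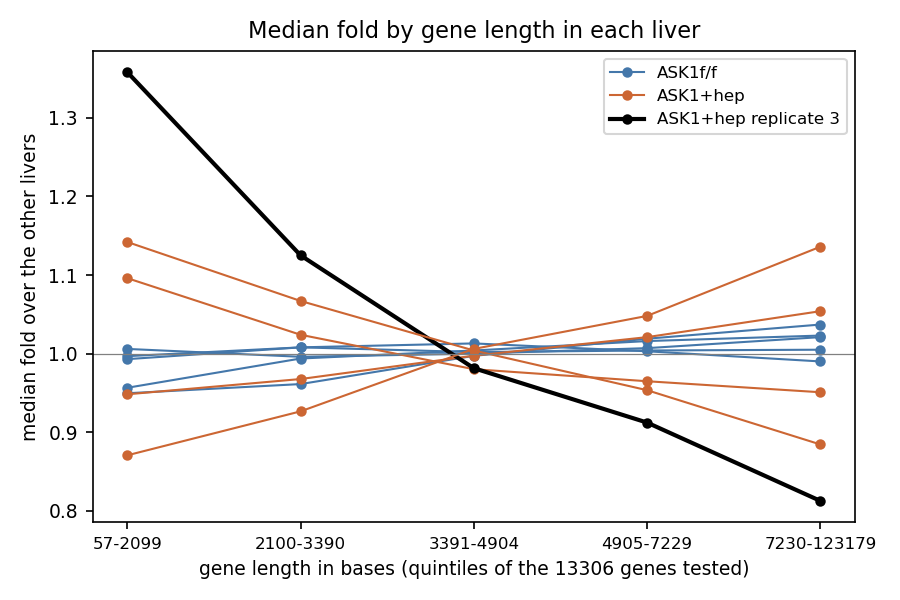
Median ratio of FPKM in each liver to the median of the other livers (vertical axis) for genes in quintiles of gene length (horizontal axis, bases), 1 line per liver. ASK1+hep replicate 3, in black, runs from 1.36 in the shortest quintile to 0.813 in the longest, and the other lines stay between 0.871 and 1.14.

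Markers of other cells were examined in the same liver. Its summed FPKM over 6 hepatocyte markers was 41052, second of 10, against 29538 to 44465 in the others. The sum hides Alb, which was at its lowest of the 10 livers there (14692 FPKM, 0.685 of the median of the others). For 5 erythroid genes it was 833 against 324 to 1053, and for 5 Kupffer cell genes it was 66.1, ninth of 10, against 50.4 to 136. The 3 lymphocyte markers summed to 1.76 FPKM, the highest of the 10 livers, against 0.235 to 1.11. At 1 FPKM or more in every liver were 0 of these 3 and 0 of 4 cholangiocyte markers, so both sums rest on low values. The count was 2 of 5 for stellate cell and 3 of 5 for Kupffer cell markers. All hepatocyte, erythroid and sinusoidal endothelial markers reached that level. The sums were 32.6 FPKM for sinusoidal endothelial markers (19.1 to 33.6 in the others), 18.2 for stellate cell markers (13.8 to 25.6) and 1.81 for cholangiocyte markers (1.59 to 3.44). Each of the 3 adipocyte markers was at 0 in at least 1 liver, and the sum there stayed under 0.053 FPKM in every liver. The part of these cells in the mitochondrial reads was not tested.

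Nuclear genes that run mitochondrial gene expression had log2 fold changes on both sides of 0. A list of 51 such genes, all tested, covered transcription, RNA processing and stability, ribosome assembly and translation. It also held the coactivators and transcription factors upstream, and genes of mitochondrial DNA replication and maintenance such as Polg and Twnk. In limma 0 passed an adjusted p of 0.05 and 2 had an unadjusted p under 0.05, both higher in ASK1+hep, where 3.05% of all genes tested did so in that direction and 2.72% in the other. A log2 fold change above 0 was found for 23 and below 0 for 28, with a median of -0.023. Without ASK1+hep replicate 3 the split was 29 above and 22 below, and without that liver and the library labelled ASK1f/f replicate 5 it was 26 and 25. The number with an unadjusted p under 0.05 was 1 without the first, 1 without the second and 0 without both, and ran from 0 (without ASK1f/f replicate 2) to 7 (without ASK1+hep replicate 5) when single livers were left out. The median ratio in ASK1+hep replicate 3 was 0.931, against 2.50 for the mitochondrially encoded genes. The lists differ in length, since 45 of the 51 regulators were longer than the shortest quintile, and the 6 within it had a median ratio of 1.32.

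The mitochondrial transcription factor and packaging protein Tfam had 9.66 ± 0.772 FPKM in ASK1f/f livers and 9.42 ± 1.22 FPKM in ASK1+hep livers (SD, n = 5 each). The RNA polymerase Polrmt had 5.88 ± 0.518 and 6.06 ± 0.995 FPKM. Lrpprc, which stabilises mitochondrial messenger RNAs, had 15.2 ± 1.68 and 15.2 ± 2.78 FPKM, and the coactivator Ppargc1a had 1.42 ± 0.621 and 1.34 ± 0.797 FPKM. Their log2 fold changes were -0.038 ± 0.11, 0.029 ± 0.11, -0.0053 ± 0.13 and -0.075 ± 0.22 (SE). The 2 genes under 0.05 before adjustment were Mterf4, which acts in assembly of the mitochondrial ribosome, at 0.25 ± 0.096, and the translation initiation factor Mtif3, at 0.30 ± 0.13. Among genes higher in ASK1+hep the elongation factor Tsfm had the next lowest p, with a log2 fold change of 0.26 ± 0.14. Those with the lowest p among genes lower in ASK1+hep were the release factors Mtrf1, at -0.33 ± 0.16, and Mtrf1l, at -0.17 ± 0.088, and the coactivator Pprc1, at -0.20 ± 0.12. The limma adjusted p was 0.812 for these 6, and the groups overlapped for each of them.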

How the data were processed

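RNA-seq libraries of 10 mouse livers, 5 ASK1f/f and 5 ASK1+hep, were analysed. The authors aligned reads with HISAT2, counted them per gene with featureCounts and deposited FPKM, with a gene length and position for each gene. The labels' processing notes also name fastp. The genome build is not given in the sources used here, but the positions of all 37 genes and of the 7 copies were those of GENCODE M21 (GRCm38), whose transcripts gave the sequences. FPKM multiplied by length came in whole steps, from which reads were recovered, with 13367742 to 16163378 on genes per library. Counting error is the limit for tRNA genes, and intervals are over livers. Each pair of libraries differed by more than sampling noise.

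A gene was kept if 5 or more livers had 10 or more reads for it, after scaling to the library of median size, with 15 or more in total (13306 of 54532 genes). limma 3.58.1 (R 4.3.3) with a mean-variance trend was fitted to log2(FPKM + 1) without covariates. It was tried on simulated data with larger changes than those of the mitochondrially encoded genes and without a length pattern. That trial does not show how well changes of their size are found. Fold changes are on the log2(FPKM + 1) scale, which understates those of low genes. Genes and lists were chosen with earlier results of these data known. Named were all protein-coding and rRNA genes, the tRNA genes tested and the most abundant, the copies, and of the 51 regulators found of 52 listed those with the lowest p in each direction plus Tfam, Polrmt, Lrpprc and Ppargc1a. Alternatives changed filter, pseudocount, scaling, method, replicate block and the livers included, or took the prefix of the animal tag as covariate. The prefix was SN in ASK1f/f replicate 1 and ASK1+hep replicate 1 and CC in all other livers. What it marks is not given in the sources used here. Shares of reads were described without a test.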

Additional observations from a re-analysis of the deposited data

Results flagged for a closer look

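In groups of 5 livers, a single liver was set apart when its gap to the nearest value exceeded 0.71 of the group's range. For independent, normally distributed values, chance does this in about 1 in 20 groups. It happened in 13 of 84 groups examined, and 10 of the 13 were ASK1+hep replicate 3. The groups reuse the same livers over genes of shared precursors, their copies and sums of these. They are therefore not 84 separate chances, and the counts cannot be set against that rate. High values on these genes were also the reason for picking ASK1+hep replicate 3. There the gap was 0.726 of the range for mt-Co1, 0.780 for mt-Co2, 0.727 for mt-Nd3, 0.869 for mt-Tc, 0.769 for mt-Tl2 and 0.932 for mt-Tn. It was 0.779 for Gm28661, 0.835 for Gm29216 and 0.851 for Gm28437, and 0.750 for the share of gene reads on the chromosome 1 copies together. The share on all 37 mitochondrially encoded genes gave 0.63 and was not set apart by this measure. The other cases were mt-Th in ASK1f/f replicate 3 (0.769), Gm10222 in ASK1f/f replicate 2 (0.898) and mt-Atp8 in ASK1f/f replicate 4 (0.736), each the highest of its group.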

How the results depend on the processing

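None of the 30 mitochondrially encoded genes passed the adjusted threshold in limma under any of 20 alternatives, of which the stricter filter left 26 of them to test. limma-voom on the recovered reads also called 0 genes, with 733 at an unadjusted p under 0.05. Their lowest adjusted p was 0.383, for mt-Rnr1 without ASK1+hep replicate 5, and the number with an unadjusted p under 0.05 ran from 0 to 10. The protein-coding median was 0.17 to 0.64 when 1 liver was left out, lowest without ASK1+hep replicate 3, and 0.12 to 0.53 otherwise. The difference in share was 0.512 to 2.16 points when 1 liver was left out. Genes with adjusted p at or below 0.05 numbered 1 with limma-voom quality weights (Fgf21), 0 to 1 when 1 liver was left out (Fgf21, without ASK1+hep replicate 5), and 3 (Mup18, Cyp2d41-ps and Asns) when both ASK1f/f replicate 5 and ASK1+hep replicate 3 were left out, an alternative chosen after seeing the data. These genes were named after their values were seen. Genes at an unadjusted p under 0.05 numbered 1222 without a filter and 557 to 1724 when 1 liver was left out, 1178 without ASK1+hep replicate 1 and 1724 without ASK1+hep replicate 5.

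The sign of 21 of 30 genes never reversed. With quality weights mt-Nd5 was -0.015, mt-Tl2 -0.037 and mt-Tl1 -0.013. Without both doubted libraries mt-Nd6 was -0.11, mt-Nd5 -0.034, mt-Tc -0.080, mt-Tl2 -0.14 and mt-Tq -0.18, while mt-Tw was -0.35 and mt-Tm -0.64. Leaving out 1 liver, the ranges were 0.028 to 0.42 for mt-Nd5, -0.083 to 0.53 for mt-Tc, -0.12 to 0.33 for mt-Tl2, -0.46 to 0.093 for mt-Tn, -0.057 to 0.30 for mt-Tl1, -0.26 to 0.15 for mt-Tw, -0.47 to 0.051 for mt-Tm and -0.13 to 0.44 for mt-Tq. The cause was not tested. Of the genes past an unadjusted 0.05, 52.9% were higher in ASK1+hep. Scaling to reads on all genes lowered this to 31.4%, and scaling to reads outside the mitochondrial genome lowered it to 36.4%, while 26 of 30 mitochondrial genes stayed above 0 under both. After each gene's genotype mean was subtracted, same-numbered livers of different genotypes correlated at 0.021 to 0.17, with a mean of 0.107. The mean was -0.027 for different-numbered livers, also compared across genotypes. Most same-numbered livers also carried adjacent animal tags. Whether the numbers mark pairs is not given in the sources used here. The main fit took no pairs, and the replicate block was run as an alternative. With the replicate block 0 genes passed and 880 had an unadjusted p under 0.05, against 768 in the main fit. Of the 30, 4 did so with the block and 1 in the main fit. Depth limits the tRNA genes with few reads.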
